A study of Mus musculus with 4 samples.

Results

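*Itgam* and the Ly6 genes *Ly6a*, *Ly6c1*, *Ly6c2*, *Ly6d*, *Ly6e* and *Ly6g* code for surface antigens by which MDSCs and neighbouring myeloid and progenitor cells are stained and sorted. The 7 genes were chosen by name, with earlier results of these data known, and 6 of them were found among the 24346 genes with a value; *Ly6g* was not analysed here. *In vitro* MDSCs had been obtained from BM cells of female C57BL/6J mice of 6 to 8 weeks, cultured for 4 days with 40 ng/ml GM-CSF. The Control group was cultured with GM-CSF alone and the G-CSF group with 5 ng/ml G-CSF in addition, with 2 libraries in each group and 4 in all. The methods describe no sort before the RNA for sequencing was taken, so each value is a mean over all cells of a culture. Nothing in the labels says whether the libraries of a group came from separate cultures or mice. The study's figure legends call them biological replicates, without saying whether cultures or mice were replicated. The p-values therefore measure the spread between these libraries, and the source of that spread is not known further. The question put to these genes was whether the transcripts of the antigens that define MDSCs and their subsets differed when G-CSF was present.

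CD11b, the product of *Itgam*, is the αM chain of an integrin that pairs with CD18, the product of *Itgb2*, to form Mac-1, a receptor for the complement fragment iC3b, ICAM-1 and fibrinogen on monocytes, macrophages and neutrophils. The Ly6 proteins are small, cysteine-rich proteins held at the cell surface by a glycosylphosphatidylinositol (GPI) anchor. Mouse MDSCs are stained for CD11b and then divided by Ly-6C and Ly-6G. Monocytic MDSCs are high for Ly-6C and negative for Ly-6G, whereas polymorphonuclear MDSCs carry Ly-6G and an intermediate amount of Ly-6C.

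In these cultures, 1 of the 5 genes that could be tested changed. *Itgam* was 21.7% lower with G-CSF (95% confidence interval 15.4 to 27.5% lower), and its partner *Itgb2* fell by nearly the same proportion. *Ly6c2*, the most abundant of the genes at 999.6 to 1148 FPKM, *Ly6c1*, *Ly6a* and *Ly6e* did not pass the test, and their fitted differences all lay between a log2 fold change of -0.13 and 0.21. *Ly6d* was near the limit of detection and was not tested. Values are in FPKM (fragments per kilobase of transcript per M mapped fragments), so that levels of different genes can be set side by side per length. Fold changes are differences of log2(FPKM + 0.1) between G-CSF and Control. A gene was said to rise or fall at an adjusted p under 0.05, from limma with Benjamini-Hochberg adjustment over 11953 genes. At that threshold 12.6% of all genes tested rose and 11.5% fell, 24.1% together, and the median fold change over all of them was 0.00 on the log2 scale. The median over the 5 genes was -0.05. None of the 5 also passed a fold of 2, the further threshold of the study's methods, which 1.43% of all genes tested did, 0.535% upwards and 0.895% downwards. The groups did not overlap in 4 of the 5, with G-CSF higher in 2 and lower in 2, as in 66.3% of all genes tested.

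The libraries held an estimated 12.4 to 15.6 M mapped reads and 14674 to 14890 genes above 0. Over the 10557 genes that reached 1 FPKM in all libraries, Pearson's r on the log2 scale was 0.995 within Control and 0.995 within G-CSF, and between 0.986 and 0.988 across the groups, values that describe genes of the same libraries and not independent replicates. An extraction note in the labels speaks of liver, whereas the sample labels and the methods give cultured MDSCs. Of 10 hepatocyte markers, 8 were at 0 in every library, and the highest, *Apoa2*, stood between 0.805 and 1.42 FPKM. Markers of neutrophils and monocytes were abundant, with summed levels of 10850 to 17310 and 1371 to 1620 FPKM.

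The *Ly6c1* and *Ly6c2* pair needs its sequences beside its values, because antibodies in common use against Ly-6C bind both products and short reads can fail to distinguish the transcripts. The 6 Ly6 genes named above, *Ly6g* included, lie within 397 kb of chromosome 15 (mm10, the same assembly as GRCm38, chr15:74762056-75159126). *Ly6c1* (chr15:75044018-75048830) and *Ly6c2* (chr15:75108158-75111970) are both on the minus strand and 59.3 kb apart. Their coding sequences, taken from the GRCm38 genome with the GENCODE M21 gene models, are 393 bases long each without the stop codon and lie in exons 2 to 4. They differed at 9 bases (97.7% identity), with a longest identical run of 188 bases. The coding part of exon 2 is shown first because 6 of the 9 differences fall in its 70 bases. Sequences run 5′ to 3′ on the coding strand, and capitals mark the bases that differ.

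*Ly6c1* exon 2 (chr15:75048442-75048511, minus strand): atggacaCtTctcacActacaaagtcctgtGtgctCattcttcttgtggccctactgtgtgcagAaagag
*Ly6c2* exon 2 (chr15:75111598-75111667, minus strand): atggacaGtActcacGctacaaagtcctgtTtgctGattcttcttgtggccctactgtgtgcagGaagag

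Exon 3 shows the opposite case. Its 117 bases are the same in both genes, so that a read of 75 bases that lies within them cannot be assigned to either.

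*Ly6c1* exon 3 (chr15:75047353-75047469, minus strand): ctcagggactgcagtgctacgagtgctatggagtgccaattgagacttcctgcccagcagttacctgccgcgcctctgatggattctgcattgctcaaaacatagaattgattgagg
*Ly6c2* exon 3 (chr15:75110511-75110627, minus strand): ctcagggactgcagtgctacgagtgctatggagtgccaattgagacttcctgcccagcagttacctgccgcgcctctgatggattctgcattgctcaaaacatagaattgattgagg

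The coding part of exon 4 has 206 bases and the 3 remaining differences, and it is shown because it completes the reading frame and holds those differences far apart.

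*Ly6c1* exon 4 (chr15:75045405-75045610, minus strand): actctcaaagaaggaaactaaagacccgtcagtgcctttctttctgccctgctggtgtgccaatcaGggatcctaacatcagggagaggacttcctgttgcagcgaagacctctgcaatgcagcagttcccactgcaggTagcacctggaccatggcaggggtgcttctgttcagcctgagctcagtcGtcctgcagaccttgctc
*Ly6c2* exon 4 (chr15:75108546-75108751, minus strand): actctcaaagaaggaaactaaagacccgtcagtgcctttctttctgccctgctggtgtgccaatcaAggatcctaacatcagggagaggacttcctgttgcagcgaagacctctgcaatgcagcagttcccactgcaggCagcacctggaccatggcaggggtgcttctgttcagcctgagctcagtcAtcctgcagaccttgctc

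Over whole transcripts, 19% of the 75-base windows of *Ly6c1* also occurred exactly in another gene, and *Ly6c2* was the gene that shared the most. For *Ly6c2* the exact share with any other gene was 9.46%, and *Ly6c1* shared the most. With up to 2 mismatches, windows were compared only among the Ly6 genes named above and *Ly6i*. The share for *Ly6c1* was then 68.7% over all of them and 54% with *Ly6c2* alone. For *Ly6c2* it was 34.5%, the same as with *Ly6c1* alone. How the authors' counting divided such reads is not given in the sources used here. *Ly6c1* stood far below *Ly6c2* in every library, so its own value is the less certain of the pair. Other members shared fewer exact windows with genes of the tables. For *Ly6a* (chr15:74994877-74998031) the exact share was 6.33%. With up to 2 mismatches it was 27.8%, and 21.3% with *Ly6c1* alone. *Ly6d* (chr15:74762056-74763620) and *Ly6e* (chr15:74955051-74959905) shared no window by either count. *Itgam* (chr7:128062640-128118491, plus strand) shared none with a gene of the tables, although 65.2% of its windows also belong to *Gm49368*, an annotated gene that overlaps it on the same strand and has no value in the tables used here.

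*Ly6c2* codes for a Ly-6C antigen that is strong on classical monocytes and their precursors. It was measured at 1105 and 1148 FPKM in the Control libraries and at 999.6 and 1066 FPKM with G-CSF. Both G-CSF libraries were below both Control libraries, as was the case for 32.6% of all genes tested. The fitted log2 fold change was -0.13 (95% confidence interval -0.26 to 0.01, adjusted p = 0.146, limma). Among all 24346 genes *Ly6c2* ranked 77th and 86th in Control and 94th and 104th with G-CSF.

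*Ly6c1* codes for the near-identical Ly-6C product that is also found on endothelial cells and lymphocytes. Its levels were 9.70 and 11.6 FPKM in Control and 9.91 and 10.6 FPKM with G-CSF, and the groups overlapped. The log2 fold change was -0.05 (95% confidence interval -0.30 to 0.20, adjusted p = 0.740, limma), and without Control replicate 2 it turned to 0.08. *Ly6c2* exceeded *Ly6c1* by ratios of 114 and 98.6 in the Control libraries and of 101 and 101 with G-CSF, which overlapped. Summed over both genes, which does not depend on how reads were divided between them as far as their lengths are alike, Ly-6C transcripts came to 1115 and 1160 FPKM in Control and 1010 and 1077 FPKM with G-CSF.

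**Figure D1:**
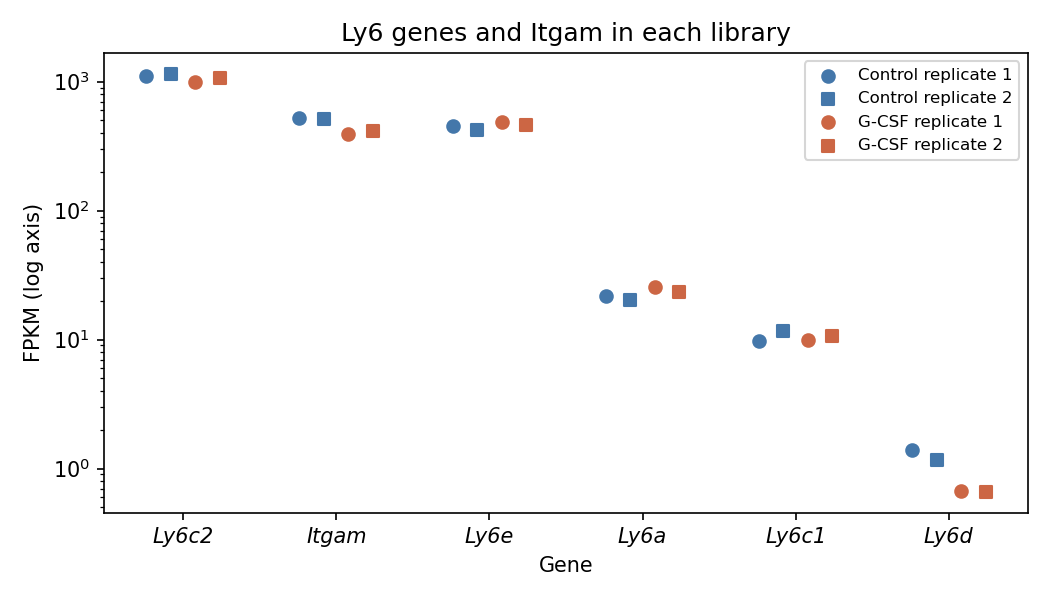
FPKM of the 6 genes in each library on a log axis, with circles for replicate 1 and squares for replicate 2 of each group. *Ly6c2* stood highest at 999.6 to 1148 FPKM, *Itgam* and *Ly6e* exchanged order between the groups, and *Ly6d* was lowest at 0.662 to 1.39 FPKM.

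*Ly6e* codes for a widely expressed Ly6 protein, known also as thymic shared antigen or Sca-2, that interferon induces. It was at 451 and 425 FPKM in Control and at 486 and 457 FPKM with G-CSF. Both G-CSF libraries were above both Control libraries, as for 33.7% of all genes tested, by a margin smaller than the spread within either group. The log2 fold change was 0.11 (95% confidence interval -0.02 to 0.24, adjusted p = 0.189, limma).

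*Ly6a* codes for Sca-1, a marker of haematopoietic stem cells that is also interferon-inducible. Its levels were 21.9 and 20.3 FPKM in Control and 25.5 and 23.4 FPKM with G-CSF, from an estimated 215 to 273 reads per library. The groups did not overlap, with G-CSF higher, as for 33.7% of all genes tested. The log2 fold change of 0.21 (95% confidence interval 0.04 to 0.38) had an adjusted p of 0.0742 (limma), which did not pass the threshold.

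*Ly6d* codes for an antigen of B cell progenitors, B cells and some epithelia. It was at 1.39 and 1.17 FPKM in Control and at 0.665 and 0.662 FPKM with G-CSF, which correspond to about 10 and 9 reads and to 4 and 6 reads. Both G-CSF libraries were lower, as for 32.6% of all genes tested, but at this depth too few reads were present for the test. Its log2 difference was -0.85, and without any filter on low values the adjusted p was 0.0707 (limma). A threshold lowered to 5 estimated reads in 2 libraries was an alternative added after these values were seen. G-CSF replicate 1 stayed below 5 reads, so *Ly6d* reached that filter only with Control libraries, where it was higher. That fit is therefore no test of *Ly6d*. The B cell genes measured beside it moved in part the same way. *Cd79a*, a chain of the B cell receptor complex, fell from 1.40 and 1.20 FPKM to 0.646 and 0.572 FPKM (adjusted p = 0.0176, limma), a call that was lost in 3 of the alternatives, whereas *Cd79b*, its partner, was at 3.24 and 3.06 FPKM in Control and 3.97 and 2.84 FPKM with G-CSF. Of 8 B cell markers, 3 were tested and 1 fell, where 11.5% of all genes tested fell. Their summed level was 4.99 to 5.97 FPKM in Control and 3.99 to 5.25 FPKM with G-CSF, and their part in the *Ly6d* values was not tested.

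*Itgam* was the member that changed. It was at 519.8 and 515 FPKM in Control (mean 518 ± 3.11, SD, n = 2) and at 395 and 416 FPKM with G-CSF (405 ± 14.5, SD, n = 2). The gap between the groups was several times the spread within either. The log2 fold change was -0.35 (SE 0.0464, 95% confidence interval -0.46 to -0.24, adjusted p = 0.0057, limma). In bulk RNA of whole cultures, fewer cells that carry a transcript and less of it per cell cannot be told apart. *Itgam* ranked 171st and 177th of all genes in Control, above *Ly6e*, and 230th and 239th with G-CSF, below *Ly6e*, and in neither group did the levels of *Itgam* and *Ly6e* overlap.

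*Itgb2*, the common β chain that every CD11 protein needs to reach the surface, was at 591 and 584 FPKM in Control and at 452 and 463 FPKM with G-CSF. Its log2 fold change was -0.36 (95% confidence interval -0.47 to -0.26, adjusted p = 0.00519, limma). The ratio of *Itgam* to *Itgb2* was 0.880 and 0.882 without G-CSF and 0.874 and 0.898 with it, so the αM to β balance overlapped between the groups. *Itgam* likewise made up 79.3% and 80.2% of the summed α chains of the CD11 family (*Itgam*, *Itgal*, *Itgax* and *Itgad*) in Control and 78.5% and 81.3% with G-CSF.

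The ratio of *Itgam* to *Ly6c2* was 0.470 and 0.449 without G-CSF and 0.395 and 0.390 with it, and the groups did not overlap. The exact permutation test of a single value with 2 libraries against 2 cannot give a two-sided p below 0.333, which is the p of this ratio, so no shift between *Itgam* and *Ly6c2* could be shown by it. The share of *Ly6c2* among the 5 Ly6 genes measured and *Ly6i* was 68.9% and 70.7% without G-CSF and 65.1% and 67.7% with it, again without overlap and with the same smallest p.

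**Figure D2:**
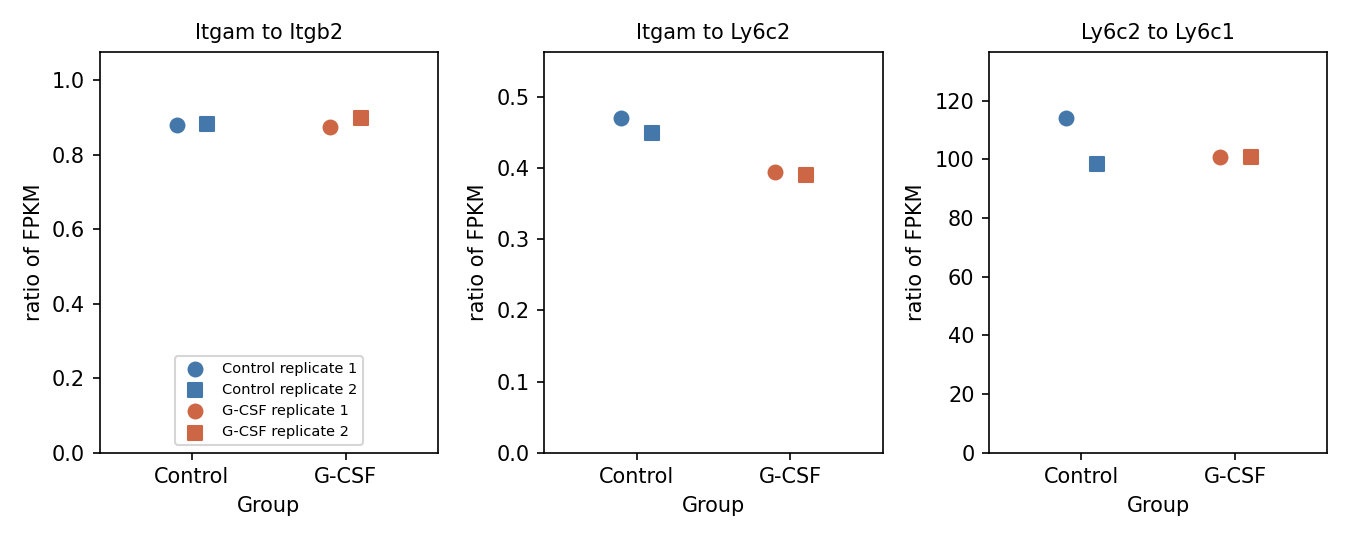
Ratios of FPKM within each library, as 1 point per library, for *Itgam* to *Itgb2*, *Itgam* to *Ly6c2* and *Ly6c2* to *Ly6c1*, on axes that start at 0. The ratio of *Itgam* to *Ly6c2* was lower in both G-CSF libraries (0.395 and 0.390) than in both Control libraries (0.470 and 0.449), and the other ratios overlapped.

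CD11c, the product of *Itgax*, and F4/80, the product of *Adgre1*, stain dendritic cells and macrophages beside CD11b. *Itgax* was at 78.6 and 69.7 FPKM in Control and at 61.5 and 47.2 FPKM with G-CSF, for a log2 fold change of -0.46 (adjusted p = 0.0405, limma). *Adgre1* was at 60.7 and 68.2 FPKM in Control and at 47.7 and 53.8 FPKM with G-CSF, for a log2 fold change of -0.34 (adjusted p = 0.0261, limma). Both were lower in each G-CSF library than in each Control library, as were 32.6% of all genes tested. These are the less secure calls. Without Control replicate 1 or without G-CSF replicate 2 the adjusted p of *Itgax* was 0.115 and 0.0705, without Control replicate 2 or without G-CSF replicate 1 that of *Adgre1* was 0.0793 and 0.0841, and with no filter on low values they were 0.111 and 0.0732.

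The genes with a part in CD11b function numbered 16 (the partner and sister chains, the activators talin, kindlin-3 and Rap1, ligands and lateral partners). Of these 15 were tested, 6 fell and none rose, with a median log2 fold change of -0.11. Over all genes tested 11.5% fell. Besides *Itgb2* and *Itgax*, the 6 included *Itgal*, the α chain of LFA-1, from 57.2 and 57.6 to 46.5 and 48.6 FPKM (-0.27), and *Icam1*, a ligand of both integrins, from 54.5 and 54.5 to 43.7 and 45.4 FPKM (-0.29), with adjusted p of 0.0119 and 0.00986 (limma). *C3*, the source of the ligand iC3b, passed narrowly (-0.23, adjusted p = 0.0486, limma). The integrin activators *Tln1*, *Fermt3*, *Rap1a* and *Rap1b* did not pass, with log2 fold changes of -0.11, -0.04, -0.06 and -0.06.

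*Plaur* codes for the urokinase receptor, a larger member of the Ly6 and uPAR family that associates with Mac-1 at the cell surface. It fell from 508 and 501 FPKM in Control to 348 and 387 FPKM with G-CSF, with a log2 fold change of -0.46 (adjusted p = 0.00568, limma). *Cd177*, a family member of neutrophils, fell from 331 and 278 to 210.0 and 222 FPKM, a log2 fold change of -0.49 (adjusted p = 0.0111, limma). In both genes the groups were separated by more than the spread within them.

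**Figure D3:**
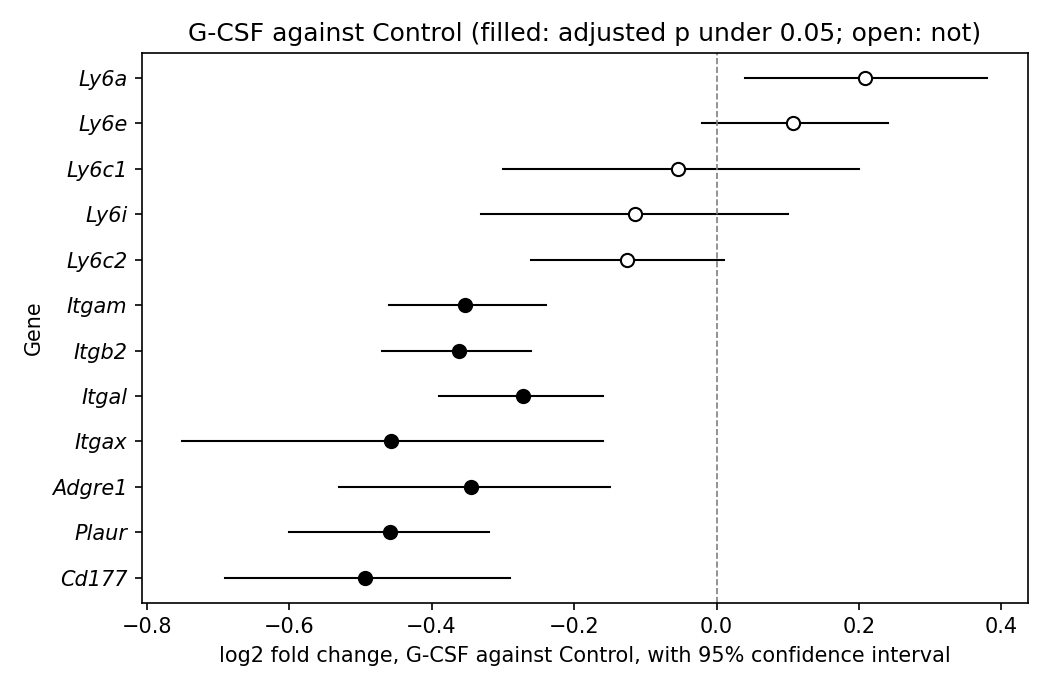
Log2 fold change of G-CSF against Control with its 95% confidence interval for the 5 genes tested, the related *Ly6i*, the CD11 and CD18 chains, *Adgre1*, *Plaur* and *Cd177*. Filled points, all at or below -0.27, passed an adjusted p of 0.05, and the open points are the Ly6 genes, between -0.13 and 0.21.

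Beyond *Plaur* and *Cd177*, the family was sparsely expressed. Of 43 other Ly6 and uPAR family genes, 34 had a value. Of these 15 were at 0 in every library, 13 were above 0 but too low to test, with a highest value of 0.479 FPKM, and 6 were tested. *Ly6g5b* fell as well, from 2.65 and 3.83 FPKM to 1.42 and 0.756 FPKM (log2 fold change -1.52, adjusted p = 0.0175, limma), on 10 to 45 estimated reads, and its adjusted p with no filter was 0.0629. *Ly6i*, the neighbour of *Ly6a* on chromosome 15 with 86.3% of its 402 coding bases in common, was at 15.4 and 16.8 FPKM in Control and 13.9 and 15.9 FPKM with G-CSF, which overlapped. *Lynx1*, a modulator of nicotinic receptors, and *Cd59a*, an inhibitor of the complement membrane attack complex, reached at most 0.339 and 1.19 FPKM and did not pass the test. In all, 3 of the 6 fell and none rose, with a median log2 fold change of -0.39, where 11.5% of all genes tested fell. The counts of reads behind the low genes limit what could be detected.

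The products of the Ly6 genes among the members depend on GPI anchor synthesis, a pathway of the endoplasmic reticulum. Of 31 genes of this pathway 29 were tested, 1 rose and none fell, and the median log2 fold change was 0.04. *Piga*, a subunit of the enzyme of the first step, rose from 5.44 and 5.64 FPKM to 8.25 and 8.03 FPKM (log2 fold change 0.55, adjusted p = 0.00933, limma). *Mppe1*, which trims the anchor after its attachment, was at 14.1 and 14.3 FPKM in Control and 12.2 and 12.1 FPKM with G-CSF, with an adjusted p of 0.0511 (limma). The share that rose was below the 12.6% of all genes tested.

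Because *Ly6a* and *Ly6e* are interferon-inducible, a list of interferon response genes was read beside them. Of 20 genes 17 were tested, 4 fell and none rose, with a median log2 fold change of -0.38. Over all genes tested 11.5% fell. *Irf7*, a transcription factor of the response, fell from 8.91 and 7.87 to 5.15 and 5.24 FPKM (-0.68, adjusted p = 0.00743, limma), and *Gbp2* and *Oasl2* also fell, at log2 fold changes of -0.42 and -0.90. *Ly6a* and *Ly6e* had fitted differences above 0, and whether they differed from the list was not tested.

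Markers of neutrophils and monocytes, which carry CD11b, were read beside *Itgam*. Of 15 neutrophil markers 11 fell and none rose, with a median log2 fold change of -0.55, where 11.5% of all genes tested fell. *Ltf* (lactoferrin), a protein of specific granules, went from 2073 and 2266 FPKM to 758 and 996 FPKM, *Camp*, the precursor of cathelicidin in the same granules, from 818 and 757 FPKM to 248 and 201 FPKM, and *Itgb2l*, a β2-like integrin gene, from 95.2 and 91.3 FPKM to 42.6 and 43.4 FPKM. Their log2 fold changes were -1.32, -1.81 and -1.12, each several times that of *Itgam*, and the summed level of the list was 17260 to 17310 FPKM in Control and 10850 to 12190 FPKM with G-CSF.

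Monocyte markers were divided. Of 15 genes 14 were tested, 5 fell and 1 rose, with a median log2 fold change of -0.04. Over all genes tested 11.5% fell and 12.6% rose. *Ctss*, a lysosomal protease, fell from 714 and 751 FPKM to 553 and 547 FPKM (-0.41), and *Csf1r*, the receptor for M-CSF, from 177 and 185 FPKM to 152 and 158 FPKM (-0.23). *F13a1*, the A subunit of coagulation factor XIII, rose from 29.0 and 27.8 FPKM to 34.9 and 35.9 FPKM (0.32). Summed, the monocyte list stood at 1585 to 1620 FPKM in Control and 1371 to 1373 FPKM with G-CSF. Whether the changes in these marker lists have a part in the lower *Itgam* and *Itgb2* values was not tested.

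**Figure D4:**
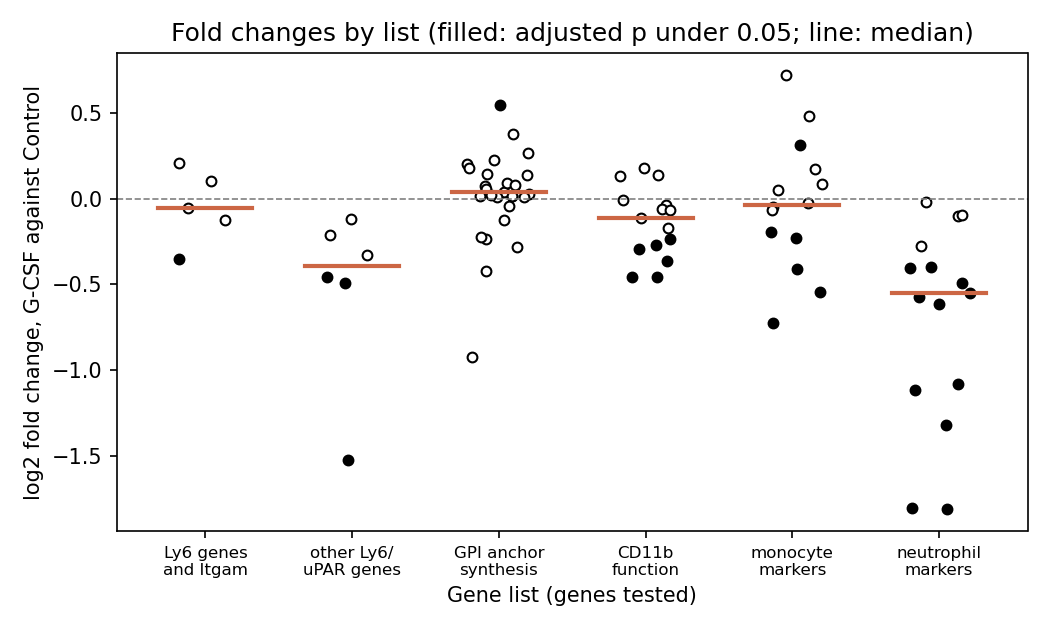
Log2 fold change of every gene tested in 6 lists, with filled points for genes past an adjusted p of 0.05 and a line at each list's median. The medians were -0.05 for the Ly6 genes and *Itgam*, -0.39 for the other family genes, 0.04 for GPI anchor synthesis, -0.11 for CD11b function, -0.04 for monocyte markers and -0.55 for neutrophil markers. The lists overlap, with *Plaur* shown under other family genes and CD11b function and *Cd177* under other family genes and neutrophil markers.

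The genes whose levels followed each transcript most closely were found from the distance between their log2 values, each centred on its own mean, over the 4 libraries. For *Itgam* they included *Cyth3*, an exchange factor for ARF proteins (12.8 and 12.8 FPKM without G-CSF, 9.90 and 10.3 FPKM with G-CSF, distance 0.0175), and *Gpcpd1*, a glycerophosphodiesterase (0.0177). For *Ly6c2* they were *Zfp710* (35.5 and 36.8 FPKM without G-CSF, 31.9 and 33.9 FPKM with G-CSF, distance 0.00929), *Kmt2d*, a histone methyltransferase (0.0102), and *Irak3*, an inhibitor of Toll-like receptor signalling (0.0128). With 4 libraries such likeness describes these libraries alone.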

How the data were processed

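Whole-transcriptome mRNA-seq of *in vitro* MDSCs was analysed from 4 libraries, 2 of Control and 2 of G-CSF, grouped by their labels. The authors deposited 1 table of gene values for each library. The unit of the deposited values is not stated in them and was read as FPKM from their steps and the tools named. The submitters' processing notes list TopHat2 2.0.13, Bowtie2 2.2.3, SAMtools 0.1.19, Cufflinks 2.2.1 and mm10, with stranded libraries read over 75 bases from a single end. The annotation and the handling of reads that fit several genes are not given in the sources used here. FPKM divides by depth and transcript length, so reads were estimated from the steps of low values. Of 1427 to 1461 such values per library, 66.5 to 68.2% were whole reads to within 0.05. Chance gives 10% at a fixed depth, but the depth and a length offset were chosen to make this share largest. This share was too small to recover counts, so the reads served only for the filter, limma voom and precision.

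G-CSF was compared with Control by limma 3.58.1 in R 4.3.3 (lmFit and eBayes with trend, two-sided) on log2(FPKM + 0.1), which understates changes of low genes, with Benjamini-Hochberg adjustment over 11953 genes. Testing required 10 or more estimated reads in 2 libraries and 15 over all. Genes with no transcript over 200 bases (1298) and genes without a length (387) were left out. GENCODE M21 gave lengths for 23959 of 24346 names. Distances, ratios, shared 75-base windows and coding differences were computed with python 3.11.15. On simulated libraries the model was tested for recovery of known changes.

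The members and all lists were chosen with earlier results of these data known. Some genes stand in more than 1 list, so the counts of the lists are not independent. *Plaur* and *Cd177* are family genes listed also under CD11b function and neutrophils. *Itgax* is listed under CD11b function and dendritic cells, and *Adgre1* under macrophages. Genes named in the text were the members, their antigen partners CD18, CD11c and F4/80, every other Ly6 or uPAR gene tested, up to 4 genes of each list by smallest p, and the 3 genes nearest to *Ly6c2* and *Itgam*; *C3* and the integrin activators were named after their values were seen. Alternatives were no filter or a stricter one, pseudocounts of 1 and 0.01 FPKM, upper-quartile and median-ratio scaling, limma voom, a replicate block and leaving out each library. *Ly6g* was not analysed here, and results for some genes that this rule names are not reported here.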

Additional observations from a re-analysis of the deposited data

How the results depend on the processing

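The fall of *Itgam* kept its direction and its side of the threshold under all 12 alternatives, with log2 fold changes of -0.39 to -0.32 and adjusted p (limma) of 0.000499 to 0.0253, and so did that of *Itgb2* (-0.38 to -0.34). *Ly6c2* (-0.17 to -0.08), *Ly6e* (0.06 to 0.15) and *Ly6a* (0.15 to 0.27) kept their directions. With the replicate block the log2 fold change of *Ly6a* was 0.21 with an adjusted p of 0.0246, past the threshold; no other member changed its call, and 2042 genes rose and 1963 fell. The labels do not say that equal numbers pair the libraries, and the deviations of same-numbered libraries correlated at 0.246, so whether they are paired is unknown. *Ly6c1* ranged from -0.184 to 0.077 as each library was left out and reversed without Control replicate 2 (0.077), as did *Cd59a* (-0.787 to 0.132), and *Gp9*, a platelet gene, reversed without G-CSF replicate 1 (-0.454 to 0.098). *Ly6d* kept a difference of -0.85 with no filter. The lower filter added after seeing the data was reached only with Control libraries, where *Ly6d* was higher, and gives no test of it.

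With no filter 882 genes rose and 744 fell; more genes were tested. At a fold over 2, 64 genes rose and 107 fell; 39 rose with at least 10 reads in every library, and 25 rose and 32 fell with a pseudocount of 1 FPKM, which shrinks the folds of low genes. Leaving out 1 library gave 741 to 910 genes that rose and 699 to 1001 that fell (at a fold over 2, 40 to 74 and 78 to 125); these fits leave 1 library in a group, assumed to vary like the other group. Other scalings and voom left the median of all genes between -0.02 and 0.02 and changed no call of a member. Of 52 other genes put through the alternatives 37 passed. Of these 21 did so under every alternative and 16 were lost under at least 1, 12 of them with no filter. Besides those given above, *Csf1r*, *Gbp2*, *Oasl2*, *Cd3d*, *Cd8a*, *Mertk*, *Epx*, *Prg2*, *Pecam1* and *Cyth3* were among the lost calls, and the causes were not tested. The calls of *C3*, *Mrc1*, *Hprt*, *Ppia*, *Rplp0* and *B2m* were not put through the alternatives. The ratio of *Ly6c2* to *Ly6g* and the genes nearest to *Ly6g* were not run. Replicates of 2 libraries, and few reads for *Ly6d*, *Ly6g5b* and *Ly6c1*, limit what could be detected, and FPKM carry no exact read counts.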

Other observations

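Markers of the other cell types that a BM culture with GM-CSF can hold, several of which carry CD11b, were lower with G-CSF in most lists. Of 10 dendritic cell genes 6 fell and none rose, with a median log2 fold change of -0.61. The 6 were *H2-Ab1*, *H2-Aa* and *Cd74* of MHC class II, *Ciita*, *Itgax* and *Batf3*. *Flt3*, *Zbtb46*, *Ccr7* and *Xcr1* did not pass, with log2 fold changes of -0.65, -0.51, -0.53 and -0.12. Over all genes tested 11.5% fell and 12.6% rose, the shares to set beside the counts of each list here. *H2-Ab1* and *H2-Aa*, chains of MHC class II, went from 474 and 396 to 229 and 182 FPKM and from 557 and 479 to 292 and 233 FPKM (log2 fold changes -1.09 and -0.99, adjusted p = 0.00455 and 0.00493, limma). The list summed to 2774 to 3241 FPKM in Control and 1461 to 1814 FPKM with G-CSF. Most of this was *Cd74*, at 2016 and 1740 FPKM in Control and 1153 and 940 FPKM with G-CSF. Of 8 macrophage genes tested 4 fell, among them *Mertk*, a receptor for apoptotic cells (-0.52), and *Mrc1*, the mannose receptor (-0.49), with sums of 173 to 196 FPKM in Control and 126 to 144 FPKM with G-CSF. Of 6 mast cell and basophil genes tested 4 fell, including the basophil protease *Mcpt8*, from 57.4 and 56.8 to 34.9 and 39.8 FPKM (-0.61), with sums of 124 to 128 FPKM and 78.6 to 87.8 FPKM. Of 4 eosinophil genes tested 2 fell, *Epx* (eosinophil peroxidase, -0.63) and *Prg2* (major basic protein, -0.72), with sums of 272 to 354 FPKM and 170 to 217 FPKM.

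Lymphoid and stromal markers were low, and their counts stand beside 11.5% of all genes tested that fell and 12.6% that rose. Of 5 T and NK cell genes tested 2 fell, *Cd3d* from 1.53 and 1.57 to 0.859 and 0.570 FPKM and *Cd8a* from 0.774 and 0.772 to 0.278 and 0.372 FPKM, and the list summed to 5.30 to 5.44 FPKM in Control and 3.17 to 4.03 FPKM with G-CSF. None of the 3 plasmacytoid dendritic cell genes or the 3 erythroid and megakaryocyte genes tested passed the test by limma (all unadjusted p above 0.05), with sums of 76.9 to 85.5 and 72.0 to 82.0 FPKM for the first list and 34.5 to 37.9 and 34.1 to 35.7 FPKM for the second. Of 7 progenitor genes tested 1 fell and 6 did not pass. *Kit*, the stem cell factor receptor that is stained beside Sca-1, fell from 11.9 and 11.1 to 6.67 and 7.36 FPKM (-0.70, adjusted p = 0.00541, limma). *Cd34* was at 4.53 and 4.24 FPKM in Control and 5.61 and 4.94 FPKM with G-CSF. Both G-CSF libraries were above both Control libraries in 3 of the 7 genes and below them in 2. Those higher were *Cd34*, *Hoxa9* (1.32) and *Hlf* (0.51), none of which passed. Of 4 endothelial and stromal genes tested *Pecam1*, an adhesion protein that leukocytes also carry, rose from 20.0 and 19.1 to 24.6 and 24.0 FPKM (0.31). *Col1a1*, a fibroblast collagen, fell from 1.28 and 0.957 to 0.268 and 0.299 FPKM (-1.66). *Kdr* (-0.55) and *Pdgfrb* (0.04) did not pass. Of the other collagens listed, *Col3a1* was at 0 in every library, and *Col1a2* was above 0 only in G-CSF replicate 1, at 0.033 FPKM.

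Of 8 housekeeping genes 3 rose and 1 fell, with a median log2 fold change of 0.17. Over all genes tested 12.6% rose and 11.5% fell. *Hprt*, *Ppia* and *Rplp0* rose by 0.27, 0.28 and 0.24, and *B2m*, the light chain of MHC class I, fell by 0.25 on the log2 scale.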
